A study of Mus musculus with 10 samples.

Results

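The 49 genes described here encode the machinery that copies DNA in S phase, and they were measured by RNA-seq in the kidney cortex of 10 mice. They are a list of named genes, chosen by what their products do, and all 49 were found among the 21792 genes with deposited values. All mice were wild-type (WT) male C57BL/6 young adults. The 4 sham mice (B607, B634, B636 and H249) received PBS, and the 6 AAN mice (A483, B614, B630, B639, B642 and B666) were given aristolochic acid at 5 mg/kg in 1 intraperitoneal injection, which injures the tubules of the kidney and is followed by fibrosis (aristolochic acid nephropathy, AAN). Cortex was taken at day 28 in both groups, so each mouse gives 1 value per gene and no time course. The comparison asks how the replication genes stood in the fibrotic cortex against the sham cortex.

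Before S phase, the origin recognition complex, CDC6 and CDT1 load the MCM2-7 helicase onto origins, a step called licensing that geminin (Gmnn) holds back once replication has begun. The DBF4-dependent kinase CDC7, CDC45 and the GINS complex then turn the loaded helicase into an active one. Polymerases alpha, delta and epsilon copy the strands, and delta and epsilon work with the sliding clamp PCNA, which RFC loads. RPA covers single-stranded DNA, FEN1 and LIG1 join Okazaki fragments, ribonucleotide reductase supplies deoxynucleotides, and CAF-1 places new histones. Most cells of the healthy adult kidney are not dividing, and surviving tubule cells are known to re-enter the cell cycle after injury. Many of these genes are known targets of the E2F transcription factors.

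Values are FPKM, read fragments scaled by transcript length and by the size of the library, so levels can be set side by side between genes. From the steps between low values, the depth was 15830000 to 17500000 fragments in the sham group and 13390000 to 16460000 in the AAN group. Libraries differed in make-up. Of all FPKM, the share of mitochondrial genes was 39.5% to 61.4% among sham and 21.4% to 55.03% among AAN mice, with the highest share in sham B634, which also held the fewest genes above 0 (16690). AAN B614 stood apart from the other AAN mice in its proximal tubule markers, as given below. Slc34a1, the phosphate transporter of the proximal tubule, was the most abundant of its marker list in AAN mice. The 8 proximal tubule markers summed to 2489 to 4395 FPKM in sham mice. No marker of the proximal tubule, podocyte or collecting duct lists was at 0 in all sham mice. Few genes were, 393 of the 17129 tested, so this says little about the tissue. Because the tissue is bulk, a difference in the number of cells of a type cannot be told apart from a difference in RNA per cell.

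In AAN cortex, 40 of the 49 genes were called higher and 0 lower. A call needed an adjusted p no larger than 0.05 (limma, Benjamini-Hochberg over the 17129 genes tested) and a 2-fold change. The background is high, since 35.8% of all genes tested were called higher by the same limits. The log2 fold changes ran from 0.46 for Tyms to 3.37 for Uhrf1, with a median of 1.54, where the median of all genes tested was 0.75 and 82.3% of all genes lay above 0. All 6 AAN mice were above all 4 sham mice in 44 of the 49, against 40.3% of genes tested. Orc2, Rpa1, Rpa3, Tyms and Dut overlapped between the groups. All 49 genes passed the filter of a mean of at least 0.1 FPKM. Without the fold limit, 47 of the 49 were higher with an adjusted p no larger than 0.05, where 55.4% of all genes tested were, and the 2 that did not pass were Rpa1 and Tyms. The 9 not called were Orc2, Gmnn, Pold2, Rfc2, Rpa1, Rpa3, Tyms, Dut and Slbp. Several of these lie near the fold limit. Without AAN B614 the calls numbered 44, with Gmnn, Pold2, Rpa3 and Dut added, where 37.4% of all genes tested were called higher. Pold2 was also called without sham B607 or H249 or AAN B630 or B639, Dut without sham H249 and Orc2 without sham B607.

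The size of these changes depended on the scaling between mice. After a median of ratios rescaling, which moved the median of all genes from 0.75 to 0.066 (log2), 23 of the 49 were called higher and 0 lower, with a background of 19.1%. Their median log2 fold change was then 0.95, and 48 of 49 lay above 0, the exception being Tyms (-0.25). After quantile normalization 14 were called higher, with a background of 13.0%, and 43 of 49 lay above 0. Relative to the median of all genes in the same scaling, 47 members were above it as deposited, 46 after the median of ratios and 46 after quantile normalization. The 14 called under quantile normalization were Mcm3, Mcm4, Mcm5, Cdt1, Gins2, Pola2, Pole, Pcna, Lig1, Rrm1, Rrm2, Uhrf1, Chaf1a and Chaf1b.

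**Figure D1:**
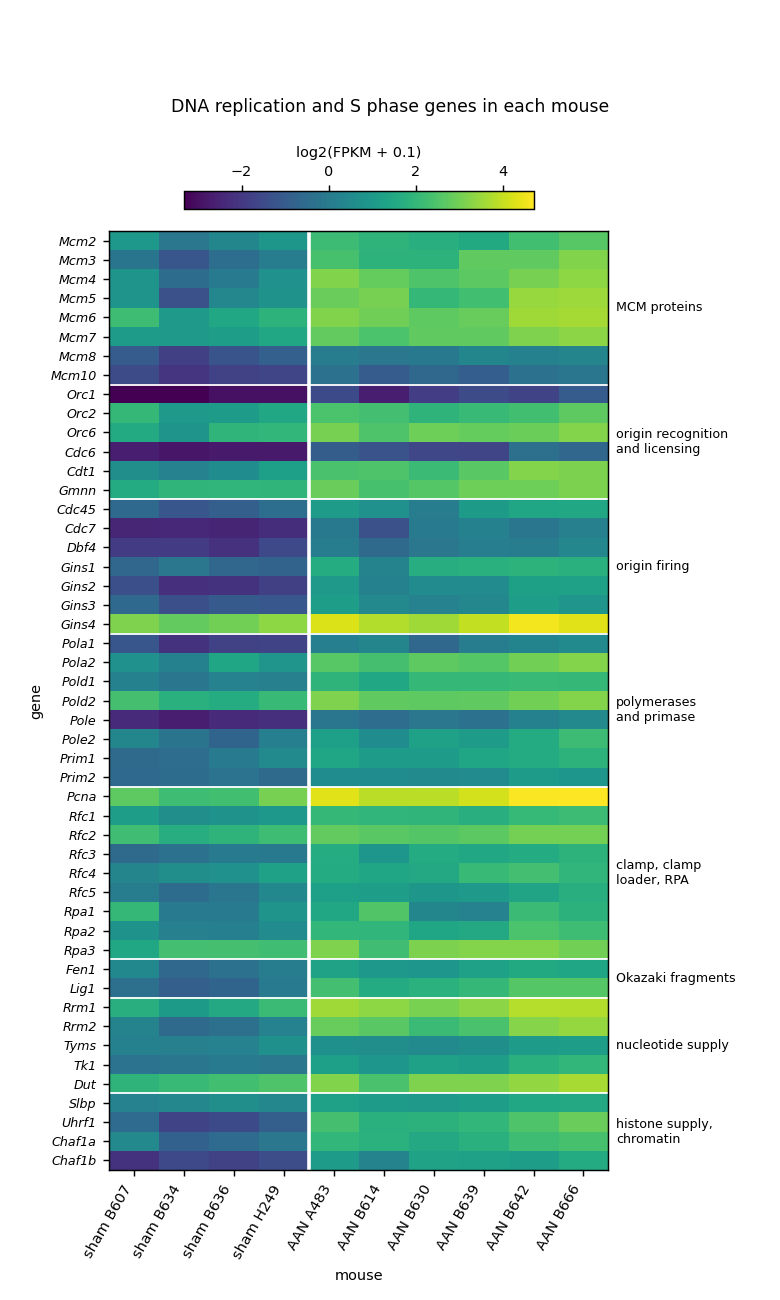
Each row is 1 of the 49 genes, grouped by role, and each column 1 mouse (4 sham, then 6 AAN); colour gives log2(FPKM + 0.1). Rows are brighter on the AAN side in nearly every role, Gins4 and Pcna are the brightest in AAN mice, and Rpa1 shows bright and dark mice in both groups.

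**Figure D2:**
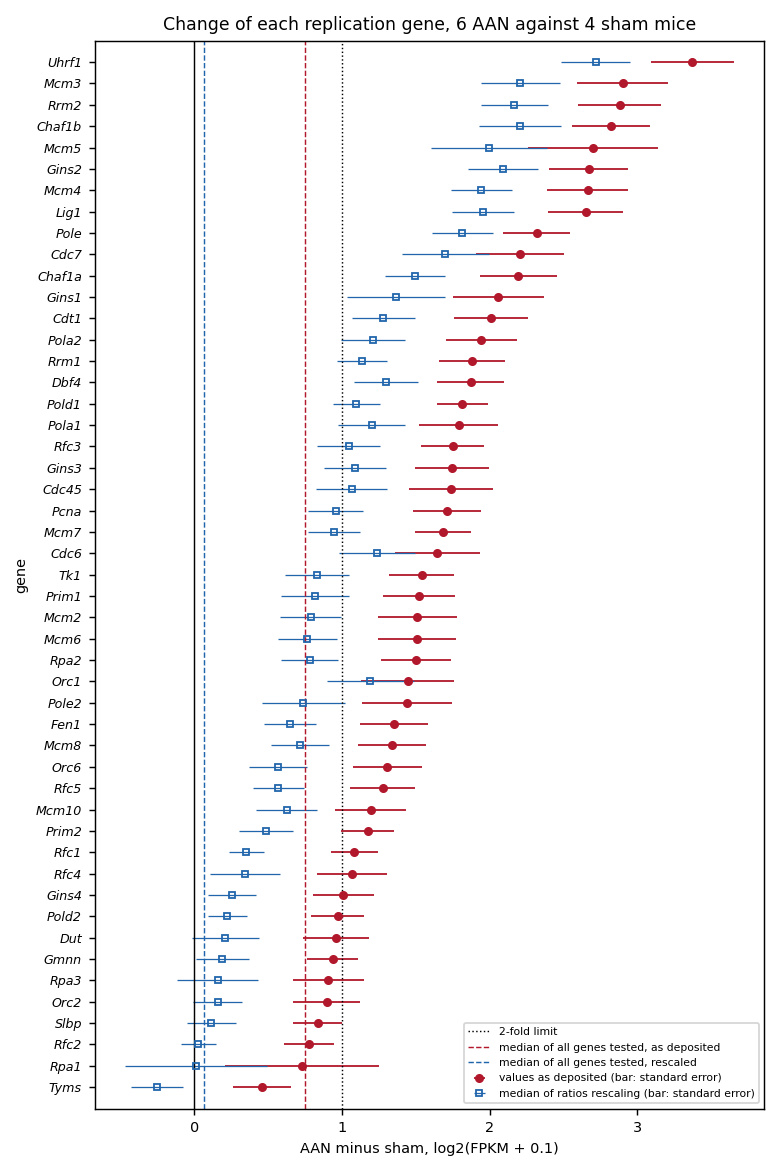
The horizontal axis gives AAN minus sham on the log2(FPKM + 0.1) scale for each of the 49 genes, as filled circles for the values as deposited and open squares after the median of ratios rescaling, with standard errors as bars; dashed lines mark the median of all genes tested in each scaling and the dotted line the 2-fold limit. The circles run from 0.46 (Tyms) to 3.37 (Uhrf1), and the squares keep nearly the same order at lower values.

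The promoters of 4 of these genes are shown because they hold letters known as E2F binding words. In 7 roles the member with the largest change among those with such a word was taken, and of these 7 the 4 with the largest changes are printed. Each runs 5′ to 3′ on the gene's strand from 250 bases before to 50 bases after the RefSeq start (GRCm38.p6), and capitals mark a match to TTTCCCGC, TTTGGCGC, TTTCGCGC or TTTGCCGC on either strand. The positions are chr17:56304063-56304362 (+ strand) for Uhrf1, chr1:20820263-20820562 (- strand) for Mcm3, chr7:13278576-13278875 (+ strand) for Lig1 and chr8:122567765-122568064 (+ strand) for Cdt1.
Uhrf1 promoter: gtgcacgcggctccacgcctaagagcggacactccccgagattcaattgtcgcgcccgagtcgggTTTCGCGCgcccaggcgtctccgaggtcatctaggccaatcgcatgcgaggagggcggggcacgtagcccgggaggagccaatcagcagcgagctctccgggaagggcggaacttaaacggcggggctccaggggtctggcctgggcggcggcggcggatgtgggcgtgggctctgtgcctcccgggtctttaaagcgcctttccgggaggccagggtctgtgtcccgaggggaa
Mcm3 promoter: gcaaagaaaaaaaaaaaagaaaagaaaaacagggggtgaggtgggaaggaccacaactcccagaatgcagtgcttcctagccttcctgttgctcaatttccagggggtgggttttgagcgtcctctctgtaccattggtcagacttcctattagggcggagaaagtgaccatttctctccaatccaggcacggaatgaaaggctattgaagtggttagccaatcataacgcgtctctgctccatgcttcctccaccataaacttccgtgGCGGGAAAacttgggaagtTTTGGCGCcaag
Lig1 promoter: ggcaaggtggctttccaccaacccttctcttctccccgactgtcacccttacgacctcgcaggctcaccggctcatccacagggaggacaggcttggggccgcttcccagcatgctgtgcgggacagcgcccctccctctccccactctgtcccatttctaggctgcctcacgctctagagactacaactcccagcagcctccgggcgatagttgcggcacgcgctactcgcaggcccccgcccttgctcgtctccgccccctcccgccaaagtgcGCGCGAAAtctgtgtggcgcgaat
Cdt1 promoter: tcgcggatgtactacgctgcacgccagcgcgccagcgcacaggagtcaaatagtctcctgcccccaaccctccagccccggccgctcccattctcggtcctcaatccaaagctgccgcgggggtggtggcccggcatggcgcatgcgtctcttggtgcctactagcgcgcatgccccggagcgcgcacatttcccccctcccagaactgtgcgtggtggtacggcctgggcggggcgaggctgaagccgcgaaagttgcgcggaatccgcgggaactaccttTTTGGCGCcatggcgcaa

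These words were in the promoters of 15 of the 41 members that the RefSeq table holds (36.6%), namely Cdc6, Cdt1, Gins3, Lig1, Mcm3, Mcm5, Mcm6, Mcm7, Mcm8, Orc1, Pola1, Pold1, Pole2, Rfc3 and Uhrf1. Of the 12112 genes tested that the table holds, 4.29% had one. By promoters and not genes, the shares were 30.6% of 49 member promoters, 3.57% of 15352 promoters of genes tested and 2.26% of all 32851 promoters in the table. The 15 members with a word held 21 matches, 4 within the 100 bases before the start, 8 further upstream and 9 at or after the start. Mcm6 had 3 of them, with first bases at -110, -106 and -47 (0 being the first transcribed base), and the first 2 overlap each other, as do the matches of Mcm5 at -153 and -149. TTTGCCGC was in none of the member promoters. As deposited, all 15 members with a word were called higher (median log2 fold change 1.75), and so were 19 of the 26 without one (median 1.43). The share of all genes tested was 35.8%. Those without a word include Rrm2 (2.88), Chaf1b (2.82) and Pcna (1.71). After quantile normalization (13.0% of all genes), the members called were Cdt1, Lig1, Mcm3, Mcm5 and Uhrf1 with a word. Without one they were Chaf1a, Chaf1b, Pcna, Pola2, Rrm1 and Rrm2. A difference between members with and without a word was not tested. In the 100 bases before the start alone, 9.76% of members held a word against 1.54% of genes tested. A match of letters is a description and does not show binding.

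A pair of other words were counted. The CCAAT box, on either strand, was in 63.4% of members and 41.8% of genes tested. TTTGAA, the cell cycle homology region (CHR) known from genes of mitosis, was in 17.1% of members and 14.9% of genes tested. In a fixed list of mitosis genes, of which the table holds 14, 71.4% held TTTGAA, 92.9% held CCAAT and 7.14% an E2F-like word. In a list of other replication genes, described below, of which the table holds 32, 28.1% held an E2F-like word. In the 100 bases before the start alone, 12.5% of those 32 held one, against 9.76% of members. Members with no entry in the table are Gins1, Gins2, Gins4, Gmnn, Mcm4, Pole, Prim2 and Rfc2.

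**Figure D3:**
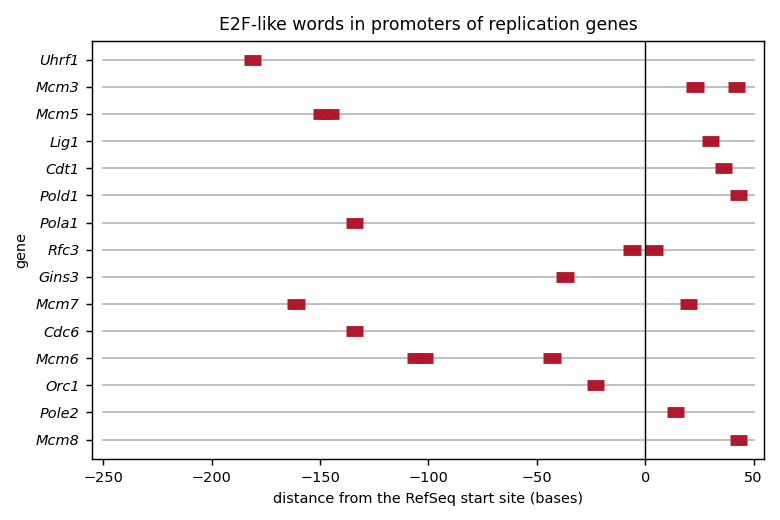
Each line is the promoter of 1 of the 15 genes with an E2F-like word, ordered by log2 fold change from Mcm8 (1.34) at the bottom to Uhrf1 (3.37) at the top; the horizontal axis gives the distance from the RefSeq start site in bases, and blocks mark the 21 matches. Matches lie on both sides of the start, 9 of them at or after it.

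All 8 genes of the helicase group rose, with log2 fold changes from 1.19 to 2.90 and a median of 1.60. For this and each later role, the background is that of all genes tested. As deposited, 35.8% of them were called higher, and in 40.3% all AAN mice were above all sham mice. The share called higher was 19.1% after the median of ratios rescaling and 13.0% after quantile normalization. Mcm3, a subunit of the MCM2-7 ring (chr1:20802968-20820312, - strand), showed the largest change. It stood at 0.775, 0.339, 0.643 and 0.923 FPKM in sham mice B607, B634, B636 and H249, and from 3.53 through a median of 5.80 to 8.92 FPKM in AAN mice. The lowest AAN mouse was above every sham mouse, and the log2 fold change was 2.90 (SE 0.31, limma adjusted p = 9.48e-06). Mcm2, another ring subunit and a common stain for cells licensed to divide, was at 1.82, 0.811, 1.17 and 1.78 FPKM in the sham mice in the same order, and at 2.81 to 6.02 FPKM (median 3.99) in AAN mice. Sham B634 was the lowest mouse and the groups did not overlap, with a log2 fold change of 1.51 (SE 0.27, limma adjusted p = 0.000483). Ring subunits Mcm4 (2.66), Mcm5 (2.70), Mcm6 (1.51) and Mcm7 (1.69) make up the rest of the ring. Mcm10, which helps to activate the helicase, had the smallest log2 fold change of the group, which the pseudocount of 0.1 FPKM holds down. Its ratio of group means, 2.97, was above those of Mcm6 (2.84), Mcm8 (2.91) and Mcm2 (2.94). Its sham values were 0.260, 0.135, 0.192 and 0.220 FPKM, its AAN values 0.403 to 0.792 FPKM (median 0.633), and its log2 fold change 1.19 (SE 0.24, limma adjusted p = 0.00112). Mcm8, which works in recombination and is not part of the ring, was at 0.409, 0.184, 0.326 and 0.448 FPKM in sham mice and at 0.799 to 1.19 FPKM (median 0.994) in AAN mice, a log2 fold change of 1.34 (SE 0.23, limma adjusted p = 0.000362). After the median of ratios rescaling Mcm3, Mcm4 and Mcm5 were the MCM genes still called higher, and after quantile normalization Mcm10 was at -0.082.

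Of the 6 genes of origin recognition and licensing, 4 rose (Orc1, Orc6, Cdc6 and Cdt1) and 2 did not reach the fold limit (Orc2 and Gmnn), with a median log2 fold change of 1.38. Cdt1, the loader of the helicase (chr8:122568015-122573554, + strand), was at 1.46, 1.07, 1.39 and 2.19 FPKM in sham mice B607, B634, B636 and H249. AAN mice held 4.36 to 9.18 FPKM (median 5.85), all above the sham mice, and the log2 fold change was 2.01 (SE 0.25, limma adjusted p = 3.35e-05). Geminin, the inhibitor of CDT1, was at 2.98, 3.71, 3.76 and 3.72 FPKM in sham mice and at 5.01 to 8.55 FPKM (median 7.36) in AAN mice. The groups did not overlap there either, but the log2 fold change of 0.94 (SE 0.17, limma adjusted p = 0.000632) was under the 2-fold limit. Orc2, a core subunit of the origin recognition complex, was at 3.93, 1.89, 2.06 and 2.65 FPKM in sham mice and at 3.65 to 6.48 FPKM (median 4.77) in AAN mice, so sham B607 was above the lowest AAN mouse. Its log2 fold change was 0.90 (SE 0.23, limma adjusted p = 0.00468).

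Orc1 and Cdc6 were near the limit of detection in sham cortex. Orc1, the subunit of the complex whose level is known to follow the cell cycle, was listed at 0 in sham B607 and B634 and at 0.0276 and 0.0275 FPKM in sham B636 and H249. The 2 listed zeros allow up to 0.0569 and 0.0629 FPKM, the worth of 3 fragments, which covers counting error only. In AAN mice Orc1 ran from 0.0578 in B614 through a median of 0.232 to 0.403 FPKM, so its lowest AAN mouse lies at about that limit. Its log2 fold change was 1.45 (SE 0.32, limma adjusted p = 0.00194), which the pseudocount of 0.1 FPKM holds down. Cdc6, which works with ORC to load the helicase, was at 0.0594, 0.0393, 0.0505 and 0.0504 FPKM in sham mice and at 0.217 to 0.678 FPKM in AAN mice, with a log2 fold change of 1.65 (SE 0.29, limma adjusted p = 0.000432). Orc6 rose by 1.31. Of the 4 called genes of this role, Orc1, Cdc6 and Cdt1 kept the call after the median of ratios rescaling (background 19.1%). Cdt1 alone kept it after quantile normalization (background 13.0%).

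All 7 genes of origin firing rose, where 35.8% of all genes tested were called higher, with a median log2 fold change of 1.87. Gins2, a subunit of the GINS complex (chr8:120578633-120589304, - strand), was at 0.286, 0.118, 0.127 and 0.190 FPKM in sham mice B607, B634, B636 and H249 and at 1.05 to 2.30 FPKM (median 1.63) in AAN mice. The lowest AAN mouse was thus well above the highest sham mouse, and the log2 fold change was 2.67 (SE 0.27, limma adjusted p = 5.58e-06). Gins4, a subunit of the same complex, had the highest sham level of the 49 genes and the smallest change of this role. It stood at 8.83, 6.75, 7.88 and 10.01 FPKM in sham mice and at 11.7 to 23.3 FPKM (median 17.3) in AAN mice, and its log2 fold change was 1.01 (SE 0.21, limma adjusted p = 0.00134). Gins4 lies at the fold limit: its call was lost without sham B634, without sham B636, and without AAN A483, B642 or B666. The other GINS subunits, Gins1 (2.06) and Gins3 (1.74), and Cdc45 (1.74) lay between. Cdc7 (2.20), the kinase that fires origins, and its activator Dbf4 (1.87) reached at most 0.109 and 0.244 FPKM in any sham mouse. AAN B614 was the lowest AAN mouse for Cdc7, Dbf4, Gins1 and Gins2. After the median of ratios rescaling all genes of this role but Gins4 were still called, against a background of 19.1%. After quantile normalization Gins2 alone was called, against a background of 13.0%.

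Of the 8 genes of polymerases and primase, 7 rose, where 35.8% of all genes tested were called higher, with a median log2 fold change of 1.66. All 8 had all AAN mice above all sham mice, against 40.3% of genes tested. Pole, the catalytic subunit of polymerase epsilon (chr5:110286306-110337474, + strand), was at 0.0958, 0.0598, 0.0974 and 0.115 FPKM in sham mice B607, B634, B636 and H249 and at 0.627 to 1.26 FPKM (median 0.796) in AAN mice. Every AAN mouse was several times above every sham mouse, and the log2 fold change was 2.32 (SE 0.23, limma adjusted p = 4.59e-06). Pold2, an accessory subunit of polymerase delta, was at 4.93, 3.27, 3.04 and 4.23 FPKM in sham mice and at 6.50 to 9.13 FPKM (median 7.29) in AAN mice. Its log2 fold change of 0.97 (SE 0.18, limma adjusted p = 0.000697) stayed under the 2-fold limit, while that of the catalytic subunit Pold1 was 1.81. Polymerase alpha and its primase showed 1.79 (Pola1), 1.94 (Pola2), 1.52 (Prim1) and 1.18 (Prim2), and Pole2 showed 1.44. The calls of Pole2 (0.74), Prim1 (0.82) and Prim2 (0.49) were lost after the median of ratios rescaling, and Pola2 and Pole alone were called after quantile normalization, where Prim2 was at -0.030.

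Of the 9 genes of the clamp, its loader and RPA, 6 rose, and the median log2 fold change of 1.08 was the lowest of the 8 roles. Pcna, the sliding clamp (chr2:132249162-132253314, - strand), had the highest AAN level of the 49 genes. It stood at 6.41, 4.48, 4.69 and 8.16 FPKM in sham mice B607, B634, B636 and H249 and at 14.4 to 25.9 FPKM (median 18.9) in AAN mice, and the lowest AAN mouse was above the highest sham mouse. The log2 fold change was 1.71 (SE 0.23, limma adjusted p = 6.34e-05). Of the loader subunits, Rfc3 changed most, from 0.585, 0.705, 0.896 and 0.848 FPKM in sham mice to 1.74 to 3.57 FPKM (median 2.95) in AAN mice, a log2 fold change of 1.75 (SE 0.21, limma adjusted p = 2.54e-05). Rfc1 (1.08), Rfc4 (1.07) and Rfc5 (1.27) also rose, and Rfc2 (0.78, or -0.0040 after quantile normalization) was under the fold limit. Without AAN B642 or without sham B607 the call of Rfc4 was lost. Rfc3 was the 1 gene of these 9 still called after the median of ratios rescaling, against the background of 19.1%, and Pcna the 1 called after quantile normalization. Pcna was at 0.96, Rfc1 at 0.35, Rfc4 at 0.34, Rfc5 at 0.57 and Rpa2 at 0.78 after the former.

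Of the 3 subunits of RPA, Rpa2 rose by 1.5 (SE 0.24), and the others were not called; differences between the subunits were not tested. Rpa1 is the large subunit, which binds single-stranded DNA. Rpa1 stood at 3.98, 0.887, 0.888 and 1.69 FPKM in sham mice and from 1.08 to 5.70 FPKM (median 3.09) in AAN mice. Sham B607 was above 4 AAN mice and the groups overlapped, with a log2 fold change of 0.73 (SE 0.52, limma adjusted p = 0.242), or 0.011 after the median of ratios rescaling and -0.28 after quantile normalization. It was 1.17 without sham B607 (limma adjusted p = 0.0624) and 0.49 without sham B634 or B636, and was not called without any 1 mouse. Its highest mice were sham B607 and AAN B614, and its highest AAN value was 5.28 times its lowest, a ratio exceeded among the members by Orc1 alone. Rpa3, the small subunit, was at 2.62 FPKM in sham B607 and at 4.62 to 4.94 FPKM in the other sham mice, and at 4.66 FPKM in AAN B614 and 7.84 to 9.11 FPKM in the other AAN mice. In B607 and B614 Rpa1 was the highest and Rpa3 the lowest of their groups. The log2 fold change of Rpa3 was 0.91 (SE 0.24, limma adjusted p = 0.00609), under the fold limit.

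Both genes of Okazaki fragment processing rose. Lig1, the ligase that seals the fragments (chr7:13277283-13311433, + strand), was at 0.686, 0.433, 0.502 and 0.908 FPKM in sham mice B607, B634, B636 and H249 and at 2.99 to 5.94 FPKM (median 4.43) in AAN mice, with no overlap. Its log2 fold change was 2.65 (SE 0.25, limma adjusted p = 3.90e-06). Fen1, the nuclease that trims the fragments, was at 1.23, 0.549, 0.694 and 0.952 FPKM in sham mice and at 1.75 to 2.85 FPKM (median 2.35) in AAN mice, a smaller log2 fold change of 1.35 (SE 0.23, limma adjusted p = 0.000349). Lig1 kept its call in both rescalings, whereas Fen1 lost it, at 0.65 after the median of ratios and 0.24 after quantile normalization (limma adjusted p = 0.286).

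Of the 5 genes of nucleotide supply, 3 rose (Rrm1, Rrm2 and Tk1) and 2 were not called (Tyms and Dut), with a median log2 fold change of 1.54. Rrm2, the small subunit of ribonucleotide reductase that is known to be made in S phase (chr12:24708241-24714146, + strand), was at 1.11, 0.577, 0.686 and 1.08 FPKM in sham mice B607, B634, B636 and H249. AAN mice held 4.28 to 10.6 FPKM (median 6.63), and the log2 fold change was 2.88 (SE 0.28, limma adjusted p = 4.36e-06). Rrm1, the large subunit of the same enzyme, was at 3.17, 1.97, 2.74 and 4.32 FPKM in sham mice and at 8.40 to 13.98 FPKM (median 10.8) in AAN mice, a log2 fold change of 1.88 (SE 0.22, limma adjusted p = 2.35e-05). Both subunits were without overlap between the groups. Tk1, the thymidine kinase of the cytosol, was at 0.735, 0.786, 0.888 and 0.805 FPKM in sham mice and at 1.77 to 3.89 FPKM (median 2.27) in AAN mice, a log2 fold change of 1.54 (SE 0.22, limma adjusted p = 0.000105). Its call was lost after the median of ratios rescaling (0.83) and after quantile normalization (0.43, limma adjusted p = 0.136), while Rrm1 and Rrm2 were called in both.

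Tyms, thymidylate synthase, the enzyme that makes dTMP, changed least of all 49 genes. It was at 1.06, 1.03, 1.08 and 1.53 FPKM in sham mice and at 1.304 to 2.09 FPKM (median 1.51) in AAN mice, where sham H249 lay above 3 AAN mice. The log2 fold change was 0.46 (SE 0.20, limma adjusted p = 0.0602), which became -0.25 after the median of ratios rescaling (limma adjusted p = 0.262) and -0.66 after quantile normalization (limma adjusted p = 0.00960). Its direction therefore depends on the scaling. Tyms and Pcna are the members for which a pseudogene of the same name is listed, and how shared reads were counted is not stated. Dut, which clears dUTP, showed a log2 fold change of 0.96 (SE 0.23, limma adjusted p = 0.00319), under the fold limit.

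Of the 4 genes of histone supply and chromatin, 3 rose, and the median log2 fold change of 2.51 was the highest of the 8 roles. Uhrf1, which reads hemimethylated DNA and brings in the maintenance methylase DNMT1 (chr17:56303321-56323486, + strand), had the largest log2 fold change of all 49 genes. It stood at 0.592, 0.214, 0.252 and 0.434 FPKM in sham mice B607, B634, B636 and H249 and at 3.34 to 7.21 FPKM (median 4.40) in AAN mice. The groups did not overlap, with a log2 fold change of 3.37 (SE 0.28, limma adjusted p = 1.45e-06), or 2.72 after the median of ratios rescaling. Chaf1a (2.20) and Chaf1b (2.82), the large and middle subunits of CAF-1, also rose, and these 3 genes were called in both rescalings. Slbp, which binds the stem-loop of histone mRNA, was at 1.08, 1.20, 1.47 and 1.21 FPKM in sham mice and at 1.92 to 2.74 FPKM (median 2.23) in AAN mice. Those groups did not overlap either, but the log2 fold change of 0.83 (SE 0.17, limma adjusted p = 0.00107) was under the fold limit, and it was -0.24 after quantile normalization.

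The log2 difference of 2 genes within a mouse was taken on the same log2(FPKM + 0.1) scale, on which a scaling of a whole mouse cancels except for the pseudocount, and 6 such pairs were tested (exact two-sided permutation test over the 210 divisions of the mice into 4 and 6, smallest possible p 0.00476, Benjamini-Hochberg over the 6 pairs). Rrm2 gained on Rrm1, from -1.70 ± 0.22 (SD, n = 4) in sham to -0.70 ± 0.22 (SD, n = 6) in AAN mice on the log2 scale, a difference of 1.0 (SE 0.14, exact permutation adjusted p = 0.00714), or 0.47 with a pseudocount of 1 FPKM. Rrm2 gained more on Rrm2b, the small subunit that p53 is known to induce. Rrm2b was at 2.21, 1.34, 1.44 and 1.73 FPKM in sham mice and at 1.55 to 3.79 FPKM (median 2.38) in AAN mice, and Rrm2 was below it in all 4 sham mice and above it in all 6 AAN mice. The log2 difference of that pair moved from -0.91 ± 0.20 (SD, n = 4) to 1.41 ± 0.57 (SD, n = 6), by 2.32 (SE 0.25, exact permutation adjusted p = 0.00714). Cdt1 gained on its inhibitor Gmnn, from -1.20 ± 0.43 (SD, n = 4) to -0.13 ± 0.32 (SD, n = 6), by 1.07 (SE 0.25, exact permutation adjusted p = 0.00714). In these 3 pairs the groups did not overlap.

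Pcna lost against Cdkn1a, the gene of p21, which binds PCNA and blocks cyclin-dependent kinases. Cdkn1a was at 3.08, 1.91, 2.27 and 3.26 FPKM in sham mice and at 24.4 to 61.7 FPKM (median 44.3) in AAN mice, a log2 fold change of 3.94 (SE 0.27, limma adjusted p = 3.65e-07). Pcna was above Cdkn1a in all 4 sham mice and below it in all 6 AAN mice, and the log2 difference moved from 1.13 ± 0.14 (SD, n = 4) to -1.10 ± 0.30 (SD, n = 6), that is by -2.23 (SE 0.14, exact permutation adjusted p = 0.00714). Tk1 and the mitochondrial kinase Tk2 were not shown to part. Tk2 was at 6.54, 7.73, 7.54 and 8.57 FPKM in sham mice and at 11.1 to 23.6 FPKM (median 18.8) in AAN mice, and the difference of the pair was 0.30 (SE 0.21, exact permutation adjusted p = 0.371), or -0.18 with a pseudocount of 1 FPKM, -0.24 after quantile normalization and 0.15 without AAN B666. Mcm2 against Mcm8 gave 0.17 (SE 0.17, exact permutation adjusted p = 0.467), or 0.47 after quantile normalization, 0.074 after the median of ratios rescaling and 0.0042 with a pseudocount of 0.01 FPKM. With a pseudocount of 1 FPKM it was 0.51 and passed the test (exact permutation adjusted p = 0.0286). That pair also depended on AAN B639, the AAN mouse with the smallest ratio, without which it was 0.32 (exact permutation adjusted p = 0.0381).

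**Figure D4:**
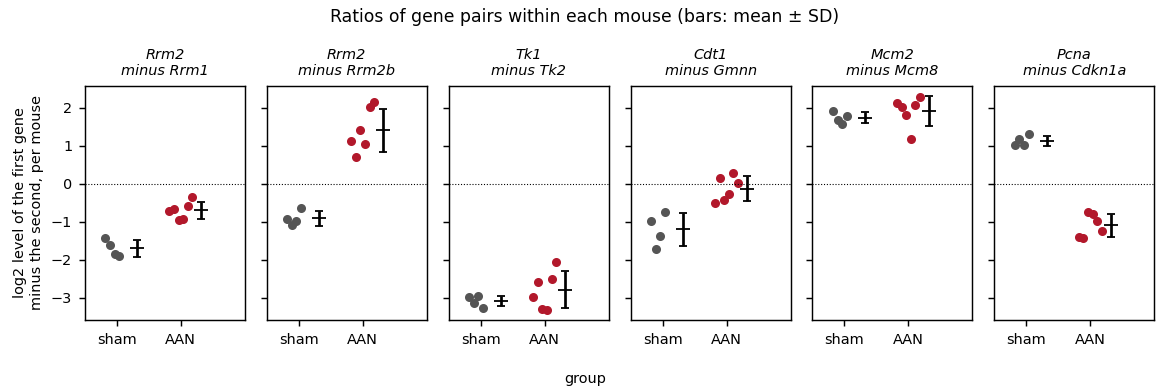
Each panel plots, on the vertical axis, the log2 level of 1 gene minus another within each mouse (points: grey for 4 sham, red for 6 AAN; bars: mean ± SD). Rrm2 minus Rrm2b and Pcna minus Cdkn1a change sign between the groups, while the groups overlap in Tk1 minus Tk2 and Mcm2 minus Mcm8.

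Among the 6 AAN mice, B666 was the highest AAN mouse for 33 of the 49 genes and B642 for 12, and the lowest was B614 for 25 and B630 for 20. The mean over the 49 genes, on the log2(FPKM + 0.1) scale, was 1.38 in B614, 1.43 in B630, 1.59 in B639, 1.77 in A483, 2.0 in B642 and 2.11 in B666. In sham mice it was -0.28 in B634, -0.023 in B636, 0.20 in B607 and 0.28 in H249, and B634 was the lowest sham mouse for 32 genes. After the median of ratios rescaling, B666 was still highest for 27 genes and B642 for 17, and B614 lowest for 29 and B630 for 12. B630 also held the highest mitochondrial share of the AAN mice (55.03%). The ratio of the highest to the lowest AAN value was smallest for Rfc1 (1.39) and largest for Orc1 (6.98). The lowest Orc1 value lies at about the limit of detection. On the log2(FPKM + 0.1) scale, the SD within AAN was largest for Rpa1 (0.94) and was 0.55 for Orc1.

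Of 40 other replication genes, a list that shares no gene with the 49, 23 were called higher, 0 lower and 17 were not called, with a median log2 fold change of 1.23 beside 1.54 for the 49. After the median of ratios rescaling 14 of the 40 were called higher and 1 lower, and after quantile normalization 8 higher and 1 lower. The 2 largest log2 fold changes were in Asf1b, a histone chaperone (3.20, SE 0.29, limma adjusted p = 2.66e-06), and Samhd1, which breaks down deoxynucleotides (3.17, SE 0.29, limma adjusted p = 2.60e-06). Among those with the smallest changes was Shmt1, a folate enzyme, at -0.12 (SE 0.24, limma adjusted p = 0.670).

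All 16 mitosis markers were called higher, as deposited and after the median of ratios rescaling, and 15 after quantile normalization, with a median log2 fold change of 2.91 as deposited. The largest changes were in Top2a, the topoisomerase that untangles sister chromatids (3.80, SE 0.26, limma adjusted p = 4.19e-07), and Mki67, the gene of the Ki-67 antigen (3.69, SE 0.22, limma adjusted p = 1.81e-07). The smallest log2 fold changes were in the kinetochore genes Cenpf (2.08, SE 0.23, limma adjusted p = 1.14e-05) and Cenpe (2.31, SE 0.24, limma adjusted p = 8.24e-06). The pseudocount of 0.1 FPKM holds down that of Cenpf, whose ratio of group means was 15.9, against 16.5 for Mki67. Within AAN, B642 was the highest mouse for 14 of these 16 genes, whereas B666 was for most replication genes.

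Markers of other cell types moved with the groups. All 8 leukocyte markers were called higher (median log2 fold change 4.43), and their FPKM summed to 8.87 to 16.3 in the sham group and to 175 to 535 in the AAN group, with Cd52 the most abundant. All 8 macrophage markers were called higher (median 4.81, most abundant Lyz2, summed FPKM 47.0 to 81.4 in sham and 1788 to 5735 in AAN). The 8 T cell markers (median 5.12, most abundant Trbc2, summed 1.66 to 4.90 and 95.4 to 288 FPKM) and the 6 B cell markers tested of 7 (median 2.35, most abundant Jchain, summed 1.81 to 3.48 and 21.6 to 88.6 FPKM) were all called higher too. So were the 8 fibroblast markers (median 2.63, most abundant in AAN Col1a1, summed 33.1 to 49.6 FPKM in sham and 144 to 348 FPKM in AAN) and 7 of 8 injured tubule markers (median 4.78, most abundant in AAN Spp1, summed 162 to 261 and 1441 to 3643 FPKM). Of 8 proximal tubule markers 6 were called lower (median -1.66), from a summed 2489 to 4395 FPKM in sham mice to 724 to 2230 FPKM in AAN mice. None of the 7 endothelial and 5 collecting duct markers, and 1 of 5 podocyte markers, was called higher. No marker of these lists was at 0 in all sham mice. The part of these cell types in the change of the replication genes was not tested.

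By mouse, B614 had the lowest mean of leukocyte markers among AAN mice (4.12 on the log2 scale, against 4.86 to 5.37 in the others) and the highest mean of proximal tubule markers (6.92, against 5.15 to 5.74). It was also the lowest AAN mouse for 25 of the 49 replication genes. B630, the lowest for 20 with a replication gene mean of 1.43, had the lowest mean of proximal tubule markers among AAN mice (5.15). A link between these means was not tested. B666, the mouse highest in the replication genes, had a leukocyte mean of 4.98 and a T cell mean of 3.70, which were not the highest, since B642 led in leukocyte markers (5.37) and B639 in T cell markers (4.57). Without sham B634 and AAN B614, 42 of the 49 replication genes were called higher, where 34% of all genes tested were. The labels tag mice with the letters B, H or A, whose meaning is not given. Among mice with a B (3 sham and 5 AAN) 41 of the 49 were called higher, where 34.8% of all genes tested were.

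**Figure D5:**
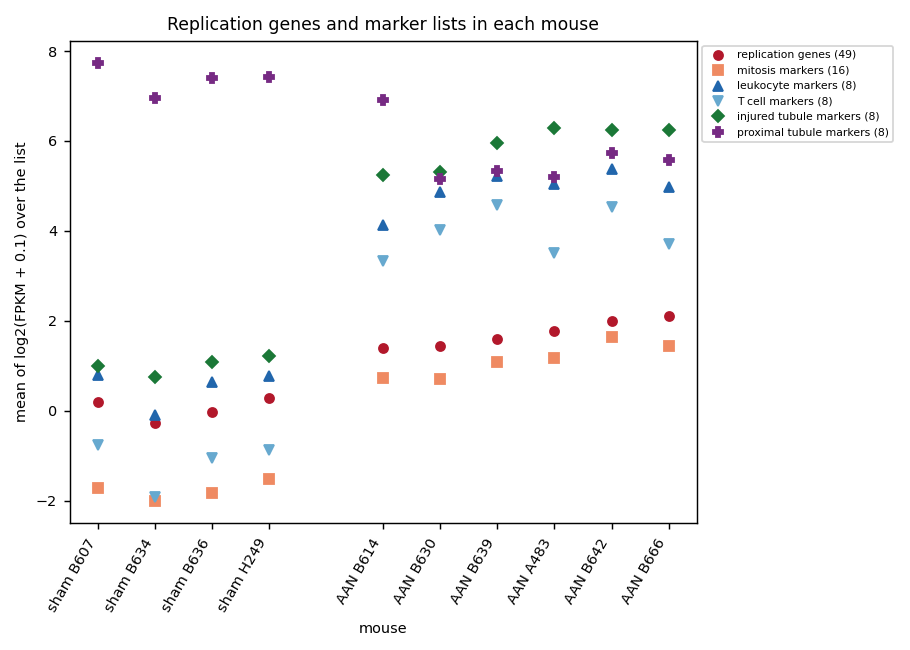
The vertical axis gives the mean of log2(FPKM + 0.1) over each gene list in each mouse (4 sham mice, then the 6 AAN mice in order of their replication gene mean). Replication genes run from 1.38 in B614 to 2.11 in B666, while proximal tubule markers are highest among AAN mice in B614 (6.92).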

How the data were processed

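The authors made paired-end RNA-seq libraries, filtered the reads, mapped them to GRCm38.p4 with Hisat2, computed FPKM for known genes with Stringtie and tested with edgeR. The deposited values are FPKM, not counts, so limma 3.58.1 in R 4.3.3 (eBayes, trend and robust on) replaced edgeR on log2(FPKM + 0.1). It was fitted over the 17129 genes whose mean reached 0.1 FPKM, with Benjamini-Hochberg adjustment. A fold change on this scale understates that of low genes. Calls used the limits of the study's methods: adjusted p no larger than 0.05, and a fold change no smaller than 2 (higher) or no larger than 0.5 (lower). The fit was tested on simulated data. Symbols and GRCm38 positions came from GENCODE mouse release 21, which held 21665 of 21792 genes. Promoters came from RefSeq. Depth was recovered from the steps of values under 0.3 FPKM in genes with 1 transcript, of which 94.6% to 96.8% were whole fragments within a tolerance of 0.05. Most members have several transcripts, between which fragments are shared, so no counts were recovered for them and no count test was run.

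The members and lists were chosen with earlier results of these data known. Named were all members by role, with values for the largest and smallest log2 fold change of each role, Mcm2, Pcna and the genes of the pairs, and the 2 largest and 2 smallest of the 2 gene lists. The values of 1 gene that this rule names are not reported here. Values of other members, among them Cdc6, Orc1, Rpa3, Dut, Cdc7, Dbf4 and those far from their group by Dixon's test, were added after they were seen. Which mice shared a litter or a batch is not given, so p-values measure only the spread between these mice. Of the members, 13 overlap another listed gene (such as Mcm7 with Cops6 and Ap4m1, and Tk1 with Afmid), and strand use is not stated. Alternatives were other pseudocounts, filters, scalings and fits, each mouse left out, and B tags alone, with rescaled pairs added after seeing the data.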

Additional observations from a re-analysis of the deposited data

Results flagged for a closer look

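In 10 of 136 groups of values 1 mouse lay far from the others by Dixon's test at the 95% level, where chance gives 6.8. AAN B614 was the low mouse for Cdc7 (0.293 FPKM, others 0.786 to 1.04), Gins1 (1.10, others 3.04 to 3.51), Pold1 (2.71, others 3.64 to 4.17) and Rpa3 (4.66, others 7.84 to 9.11), and the high mouse for the mean of the proximal tubule markers (6.92 on the log2 scale, others 5.15 to 5.74). Sham B607 was low for Gmnn (2.98 FPKM, others 3.71 to 3.76) and Rpa3 (2.62, others 4.62 to 4.94). Sham B634 was high for Gins1 (0.815, others 0.489 to 0.523) and low for the mean of the leukocyte markers (-0.095 on the log2 scale, others 0.64 to 0.78). Sham H249 was high for Tyms (1.53 FPKM, others 1.03 to 1.08).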

How the results depend on the processing

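Of the replication genes, 23 were called higher after the median of ratios rescaling, 21 with a pseudocount of 1 FPKM and 14 after quantile normalization, against 40 as deposited, but 47 with the same FPKM total in every mouse, where 51.6% of all genes (8837) were. With a pseudocount of 1 FPKM, 17% of all genes were called higher. With each mouse left out in turn, 38 (without AAN B642) to 44 (without AAN B614) of the replication genes were called higher. The share of all genes was 35.4% without B642 and 37.4% without B614. In every setting 0 replication genes were called lower. With a mean of at least 1 FPKM, 41 members were tested and 32 called higher, where 32.8% of the 12271 genes tested were. All genes called higher were 4025 with that filter, 3266 after the median of ratios rescaling, 2909 with a pseudocount of 1, 2232 after quantile normalization and 9482 with no fold limit, against 6126. Genes called lower were 588 as deposited, 1797 after the median of ratios rescaling (3591 with no fold limit, a setting chosen after seeing the data, as was leaving out sham B634 with AAN B614), 2157 after quantile normalization, 1027 with no fold limit and 332 with the same FPKM total. After quantile normalization Mcm10 (-0.082), Prim2 (-0.030), Rfc2 (-0.0040), Rpa1 (-0.28), Tyms (-0.66) and Slbp (-0.24) turned negative, and Tyms also after the median of ratios rescaling (-0.25). With a pseudocount of 1, Tk1 minus Tk2 was -0.18 (-0.24 after quantile normalization, added for the pairs after seeing the data with the median of ratios rescaling) and Mcm2 minus Mcm8 was 0.51 (exact permutation adjusted p = 0.0286). With each mouse left out, Mcm2 minus Mcm8 ranged from 0.098 to 0.32, and the 4 pairs that passed the test kept their side of it. The cause of these shifts was not tested. No paired analysis was possible because the groups share no replicate number. Count tests were not run, since the values are FPKM. Depth limits the low genes, most of all Orc1, Cdc6 and Cdc7, whose sham means are worth at most 0.793, 4.32 and 6.15 fragments. Gins2 (12.2) and Gins1 (14.7) are also low by this measure.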
